A study of Mus musculus with 56 samples.

Results

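Myl1 and 4 genes that lie near it on mouse chromosome 1 (Acadl, Lancl1, Rpe and Kansl1l) were followed through gastrocnemius muscle of 56 mice. They are 5 of the 15539 genes in the deposited count table, and all 5 passed the filter on low counts that left 14321 genes for testing. Myl1 was taken because its promoter drives the Cre recombinase of this mouse line and because it had been seen to be lower in the mice labelled HuRm-/-, so it was chosen by its measured counts in that comparison, and its values under the label are a description and carry no test. The other members were taken for their position, and the question was whether the lower Myl1 extends to them. The mice were C57Bl/6, 5 months of age and fed chow 5015, and the 8 groups (male or female, control or HuRm-/- label, locked or running wheel) held 7 mice each. Running-wheel mice had a wheel from 10 to 20 weeks of age, and the other mice had a locked wheel. Mice labelled HuRm-/- carry floxed alleles of Elavl1, the gene of the RNA-binding protein HuR, and Cre under the Mlc1f promoter of Myl1. Control mice carry the floxed alleles without Cre. The 2 labels thus differ in the Cre sequence as well as in the intended loss of HuR, and these cannot be told apart here. The sources used here do not say whether the Cre sequence was placed at Myl1 itself or elsewhere in the genome. Each library came from 1 mouse.

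Myl1 encodes the essential light chains of fast skeletal myosin, small subunits that wrap the lever arm of the myosin heavy chain. An upstream and an internal promoter give a long and a short form, MLC1f and MLC3f, which share their 3′ exons. The gene is a classic marker of fast fibres, and its upstream promoter is widely used to express transgenes in differentiated skeletal muscle. Acadl encodes long-chain acyl-CoA dehydrogenase, an enzyme of mitochondrial fatty acid oxidation. Lancl1 encodes a glutathione-binding protein of the LanC-like family. Rpe encodes ribulose-phosphate 3-epimerase of the pentose phosphate pathway, and Kansl1l encodes a relative of KANSL1, a scaffold of the NSL histone acetyltransferase complex.

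On GRCm38 with the GENCODE M21 annotation, Myl1 (ENSMUSG00000061816) spans chr1:66924295-66945404 on the minus strand. Lancl1 (ENSMUSG00000026000, chr1:67000517-67038872, minus strand) starts 93.5 kb from the start of Myl1 on the side of higher coordinates. Acadl (ENSMUSG00000026003, chr1:66830839-66863277, minus strand) starts 82.1 kb away on the other side. Kansl1l (ENSMUSG00000026004, chr1:66719248-66817562, minus strand) and Rpe (ENSMUSG00000026005, chr1:66700831-66719805, plus strand) follow at 127.8 and 244.6 kb. Rpe and Kansl1l overlap by 558 bases at their 3′ ends on opposite strands, and 4 unconfirmed transcripts lie inside Kansl1l, so reads there could have been counted for either gene. Myl1 has 5 annotated protein-coding transcripts, 2 from the upstream start and 3 from the internal start 9.5 kb further down, and the counts are summed over the gene, so MLC1f and MLC3f are not separated.

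The stretch before the first base of transcript Myl1-201, an upstream start of Myl1, is shown because it belongs to the promoter named for the Cre recombinase. It lies inside the gene's span, since other transcripts of Myl1 begin further out. The stretch before the RefSeq start of Lancl1 is shown because that neighbour also fell, and its last 38 bases, with the marked letters, lie inside the GENCODE span of the gene. Both were read from the RefSeq promoter entries on GRCm38.p6 (chr1:66945144-66945306 and chr1:67038835-67039084, minus strand, 5′ to 3′). Capitals mark the E-box CANNTG, the core motif bound by myogenic basic helix-loop-helix factors, which reads the same on both strands.
Myl1: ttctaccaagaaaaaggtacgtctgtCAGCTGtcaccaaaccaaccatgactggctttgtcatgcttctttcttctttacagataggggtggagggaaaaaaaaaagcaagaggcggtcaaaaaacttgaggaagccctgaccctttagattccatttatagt
Lancl1: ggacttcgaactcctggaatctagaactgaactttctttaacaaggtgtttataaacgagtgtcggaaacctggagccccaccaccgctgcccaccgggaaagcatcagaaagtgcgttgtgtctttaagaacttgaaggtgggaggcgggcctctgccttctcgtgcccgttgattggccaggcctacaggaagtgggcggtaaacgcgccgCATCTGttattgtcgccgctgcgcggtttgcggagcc
Each stretch holds 1 E-box. The motif CANNTG was present in all 5 members within the full entries of 300 bases, and 72.3% of 32851 promoter entries of that length hold it. Its variant CAGCTG, present in Myl1 and Rpe, is held by 16.3% of them. These matches describe letters only.

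Total counts ran from 6639782 to 21633091 per mouse (median 12380363), and Myl1 alone took 0.217% to 1.32% of them. Values below are normalised read counts in CPM, counts per 1000000 after TMM scaling. In the gastrocnemius libraries the muscle genes Acta1 and Myh4 were counted in every mouse, at medians of 23000 and 25600 CPM. Elavl1, the floxed gene, lay between 27.8 and 61.9 CPM in control mice and between 37.9 and 69.8 CPM in mice labelled HuRm-/-. Its pooled log2 fold change was 0.13 (SE 0.06, limma adjusted p = 0.15), and in males with running wheels it was 0.44 (adjusted p = 0.024). The label is thus not borne out by a lower Elavl1 count in these libraries, and it is used below as a label. By qPCR, the paper reports less Elavl1 mRNA in gastrocnemius of HuRm-/- mice than in that of controls. Whether the counted reads lie in the deleted part was not determined here.

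Myl1 was lower in the mice labelled HuRm-/- than in controls of the same sex and wheel, at 63.9% of the control level when the 4 comparisons were averaged. In males with locked wheels, controls ran from 8834 to 14049 CPM (median 11261) and labelled mice from 2319.7 to 13731 CPM (median 6417). In males with running wheels, controls ran from 10294 to 13611 CPM (median 11145) and labelled mice from 5420.0 to 10816 CPM (median 5776). The medians of the labelled males thus lay below every control, while their highest mice lay inside the control range. In females with locked wheels, controls kept within 8673 to 9837 CPM (median 9679), whereas labelled mice spread from 4812 to 13359.8 CPM (median 5475). In females with running wheels, controls ran from 7507 to 10346 CPM (median 9467) and labelled mice from 3921 to 8477 CPM (median 5021). The groups overlapped in all 4 comparisons. The log2 fold changes were -0.77 and -0.70 in males with locked and running wheels, and -0.44 and -0.68 in the corresponding females. In bulk muscle, fewer fibres of a type and less RNA per fibre cannot be told apart.

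**Figure D1:**
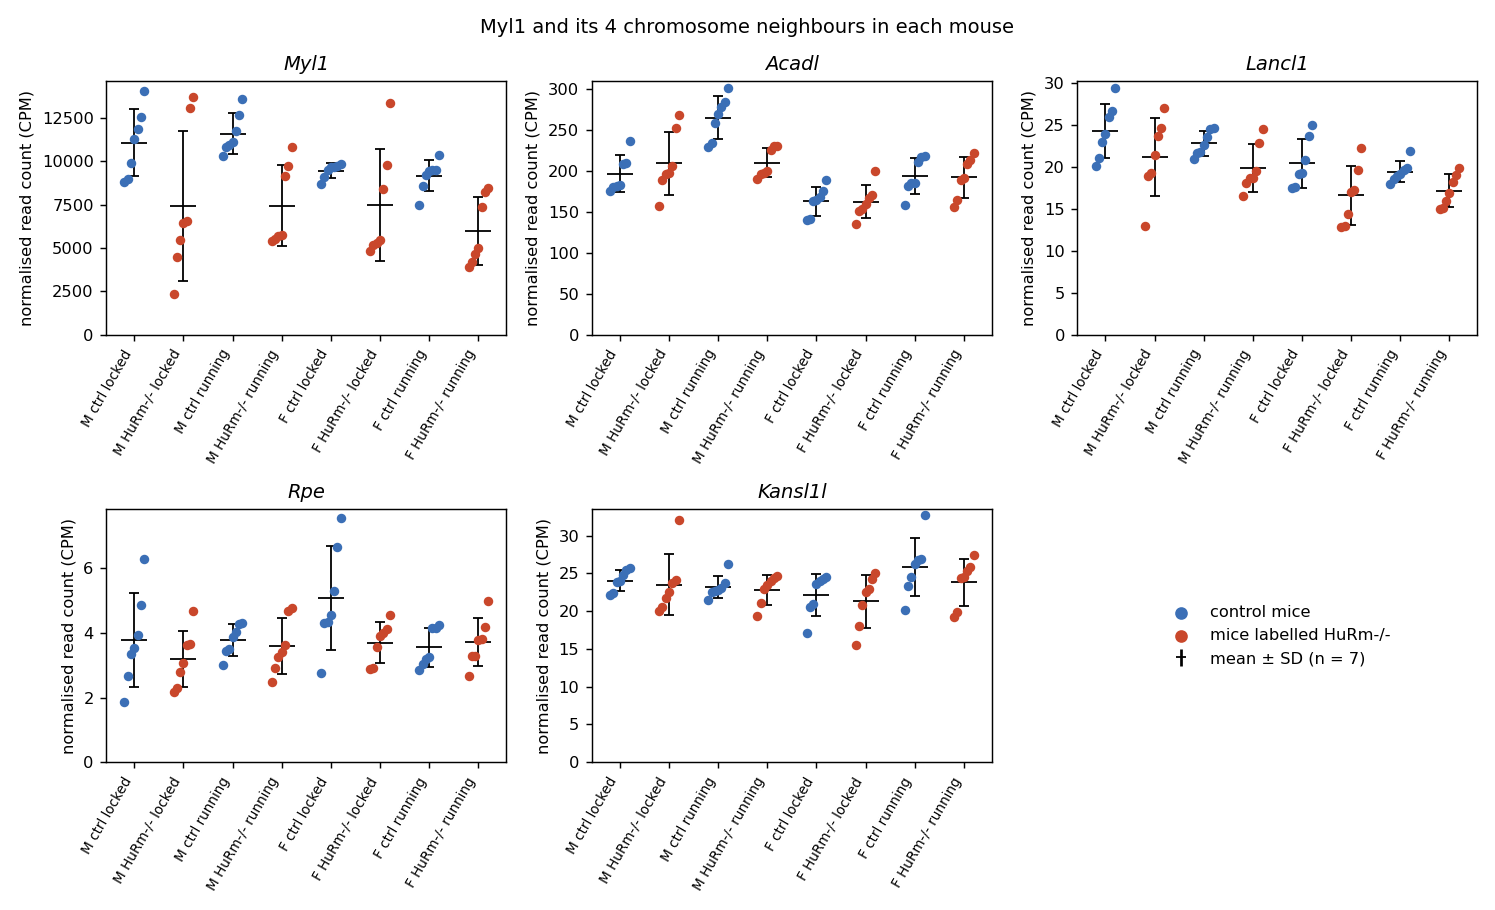
Normalised read count (CPM, axes from 0) of Myl1 and its 4 neighbours in every mouse of the 8 groups (M male, F female; ctrl control; locked or running wheel); points are mice, bars the mean ± SD (n = 7). In Myl1 most HuRm-/- points sit in a low clump under the control points, while in Rpe and Kansl1l the colours mix. In Acadl they mix too, except in running males, where the labels touch only at their edges.

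The labelled mice were spread unevenly in Myl1. Expressed as percent of the control mean of the same sex and wheel, 17 of the 28 lay between 21% and 59% and the other 11 between 78.7% and 141%, with no mouse between. The lowest mouse, at 21%, stood about as far from the next at 40.3%, and the highest at 141% from the next at 124%. Controls ran from 79.8% to 127% on the same scale. The lower clump held 5 male mice with locked wheels and 4 mice of each other labelled group. Ordered by mean, the 4 labelled groups came first, from 5973 ± 1970 CPM (SD, n = 7) in running females to 7469 ± 3217 CPM in locked females, and the 4 control groups followed, from 9165 ± 901 CPM in running females to 11603 ± 1166 CPM in running males. No step between neighbouring groups in that order exceeded the larger SD of the pair. From the lowest pooled log2 fold change, Myl1 had rank 71 of the 14321 genes tested, rank 8 of 979 on chromosome 1 and rank 7 of the 4044 genes counted at least as highly as Lancl1.

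Lancl1 also fell with the label. The pooled log2 fold change was -0.22 (SE 0.06, 95% CI -0.34 to -0.11, limma adjusted p = 0.0051), which is 85.6% of the control level. Of all genes tested, 7.41% were called lower and 4.43% higher in this comparison. In males with locked wheels, controls ran from 20.1 to 29.4 CPM (median 23.9) and labelled mice from 12.9 to 27 CPM (median 21.4). In males with running wheels, controls ran from 20.9 to 24.6 CPM (median 22.6) and labelled mice from 16.5 to 24.5 CPM (median 18.7). No labelled mouse exceeded the highest control in either comparison. In females with locked wheels, controls ran from 17.4 to 24.96 CPM (median 19.2) and labelled mice from 12.9 to 22.2 CPM (median 17.04). In females with running wheels, controls ran from 17.9 to 21.8 CPM (median 19.1) and labelled mice from 15 to 19.9 CPM (median 16.9). The log2 fold change was negative in all 4 comparisons (-0.20, -0.22, -0.30 and -0.19 in this order) but passed the test in none of them alone, with limma adjusted p from 0.22 to 0.54. Over all genes, 0.831%, 1.87%, 0.258% and 0.0% were called lower in these comparisons. Of the 28 labelled mice, 17 lay below every control of their sex and wheel, against a median of 3 over all genes tested, and 1.33% of genes had at least as many. The raw counts behind these values were 123 to 480 per mouse.

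The other 3 neighbours did not pass the test in the pooled comparison. Acadl had a pooled log2 fold change of -0.07 (95% CI -0.16 to 0.03, limma adjusted p = 0.39). Rpe had -0.18 (95% CI -0.38 to 0.01, limma adjusted p = 0.22) and Kansl1l -0.06 (95% CI -0.15 to 0.04, limma adjusted p = 0.51). The interval of Rpe includes the estimate for Lancl1. The log2 fold change was negative in 4 of 4 comparisons for Kansl1l and in 3 of 4 for Acadl and Rpe. Rpe rested on 12 to 106 counts per mouse, the fewest of the members. Its medians were 3.52 and 3.08 CPM in control and labelled males with locked wheels, 3.86 and 3.39 CPM with running wheels, 4.56 and 3.90 CPM in females with locked wheels and 3.25 and 3.77 CPM with running wheels. Control and labelled mice overlapped in each of them. Of the 28 labelled mice, 8 in Acadl, 8 in Kansl1l and 3 in Rpe lay below every control of their sex and wheel, against the median of 3 over all genes. Above every control lay 4, 2 and 3 of them in this order, against a median of 4. The share of genes with at least 8 below was not determined here. Kansl1l varied little between groups, with means from 21.3 ± 3.46 CPM (SD, n = 7) in labelled females with locked wheels to 25.8 ± 3.85 CPM in control females with running wheels, and no step between neighbouring groups exceeded the larger SD.

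Acadl differed with the label in running males alone among the 4 comparisons tested. There controls ran from 230.0 to 302 CPM (median 270.0) and labelled mice from 191 to 231 CPM (median 199.5), so that the 2 groups touched only at their edges. The log2 fold change was -0.33 (SE 0.09, limma adjusted p = 0.034), in a comparison where 1.87% of genes were called lower. The call was lost when any of 9 single mice was left out (control mice 10, 13, 25 and 26, labelled mice 2, 6, 7, 21 and 22), with log2 fold changes of -0.34 to -0.30 and adjusted p of 0.0512 to 0.0991, and with the adipocyte markers as a covariate (adjusted p = 0.0607) or the fast minus slow markers (adjusted p = 0.0882). In the other comparisons the log2 fold change of Acadl was 0.07 in locked males and -0.01 in both female comparisons. The difference between the label effects with running and with locked wheels was -0.20 (SE 0.09, limma adjusted p = 0.40), so it was not shown that the effect depends on the wheel. Over the 4 neighbours, none of 8 interactions of the label with wheel or sex passed the limma test (adjusted p from 0.397 to 0.993), 1 had an unadjusted p under 0.05, and edgeR and DESeq2 called none either. Each of these interactions was called in 0.00698% of all genes.

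**Figure D2:**
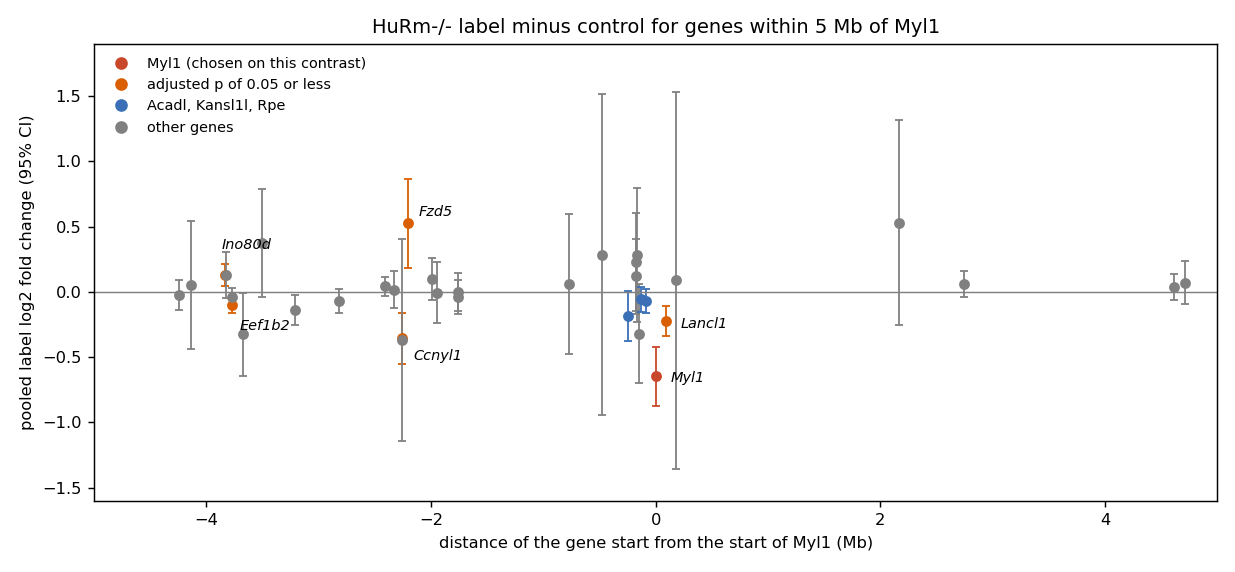
Pooled log2 fold change of the HuRm-/- label (points, with 95% CI) against the distance of each gene's start from the start of Myl1 in Mb, for the 35 tested genes within 5 Mb. The CI of Myl1 is drawn as a description and carries no test, since that gene was chosen on this comparison. Lancl1 is the only neighbour within 1 Mb past the adjusted p of 0.05, with an interval of -0.34 to -0.11.

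The neighbourhood as a whole did not follow Myl1. Within 1 Mb of its start, 11 other genes were tested, of which Lancl1 was called lower and none was called higher. Their median log2 fold change was 0.06, beside 0.01 over all genes tested. Within this stretch lie also Cps1, the liver enzyme carbamoyl-phosphate synthetase at 177.6 kb, and the neuronal genes Unc80 and Map2 at 477.0 and 770.1 kb. Cps1 had a pooled log2 fold change of 0.09 (SE 0.72, limma adjusted p = 0.96) and 0 counts in 10 mice. That value averages 3.13 and 2.13 in locked and running males with -3.10 and -1.79 in the corresponding females (limma adjusted p from 0.12 to 0.77), and the difference of the label effects between the sexes was -5.08 (SE 1.44, adjusted p = 0.38). Unc80 and Map2 had 0.29 (SE 0.61, adjusted p = 0.84) and 0.06 (SE 0.27, adjusted p = 0.93). The unconfirmed transcripts Gm37570, Gm38387, Gm38162 and 6820402A03Rik inside Kansl1l had 0.23, 0.12, 0.28 and -0.32, with limma adjusted p from 0.30 to 0.68. Between 1 and 5 Mb, 23 genes were tested, with 2 called higher and 2 lower. Fzd5, a Wnt receptor, rose by 0.53 (SE 0.17, limma adjusted p = 0.034), and Ino80d, a subunit of the INO80 remodeller, rose by 0.13 (SE 0.04, adjusted p = 0.029). Ccnyl1, a cyclin Y relative, fell by 0.35 (SE 0.10, limma adjusted p = 0.011), and Eef1b2, a translation elongation factor subunit, fell by 0.10 (SE 0.03, adjusted p = 0.043). The share of genes called was 14.7% within 5 Mb without Myl1, 9.64% over the rest of chromosome 1 and 11.97% on other chromosomes. These shares lie near the 11.8% of all genes tested.

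Most slow-fibre genes rose with the label, and most fast-fibre genes did not pass the test. Of 12 slow contractile genes, 8 were called higher and none lower, where 4.43% of all genes were called higher (median log2 fold change 0.38, beside 0.01 over all genes). Tnnc1, slow troponin C, rose by 0.72 (SE 0.11, limma adjusted p = 1.4e-05), Tnnt1, slow troponin T, by 0.57 (SE 0.10, adjusted p = 0.00012) and Myl2, the slow regulatory light chain, by 0.56 (SE 0.10, adjusted p = 0.00012). Of 17 fast contractile genes other than Myl1, Tnnc2 was called lower, at -0.15 (SE 0.04, limma adjusted p = 0.0050), none was called higher, and the median was -0.02. Among 10 other myosin light chain genes, Myl2, Myl3 at 0.31 and the non-muscle Myl12a at 0.17 were called higher, and Myl4, the embryonic and atrial light chain, was called lower at -0.42 (SE 0.13, adjusted p = 0.025). Mylpf, the fast regulatory light chain that pairs with the products of Myl1, had 0.03, with group means from 10716 to 13941 CPM. With the difference between the mean fast and mean slow markers as a covariate, the pooled log2 fold change was -0.19 for Myl1 and -0.07 for Lancl1 (limma adjusted p = 0.66). The genes called over the whole table fell from 1695 to 116, and no gene within 5 Mb other than Myl1, which carries no test, was called. The part of fibre type in the lower Myl1 and Lancl1 was not tested.

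Mice with low Myl1 tended to have low Lancl1. After the group means were subtracted, r between the 2 genes was 0.72 over 56 mice (Spearman's rho 0.63), which gave Lancl1 rank 23 from the highest of 14320 genes. Without the 2 mice farthest from the median of Myl1, r was 0.64. Within the 28 control mice r was 0.24, within the 17 labelled mice of the lower clump 0.69 and within the other 11 labelled mice 0.51. The 0.69 includes mouse 15 of the labelled locked males, at 21% of the control mean in Myl1 and 53.4% in Lancl1. Both are the lowest values of the clump, and r of the clump without this mouse was not determined. The other neighbours had r of 0.02 for Acadl, 0.22 for Rpe and -0.14 for Kansl1l over 56 mice, and 0.26, 0.11 and -0.13 without the 2 farthest mice. All of these are descriptions, since the genes of a mouse share 1 library and 1 scaling factor.

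**Figure D3:**
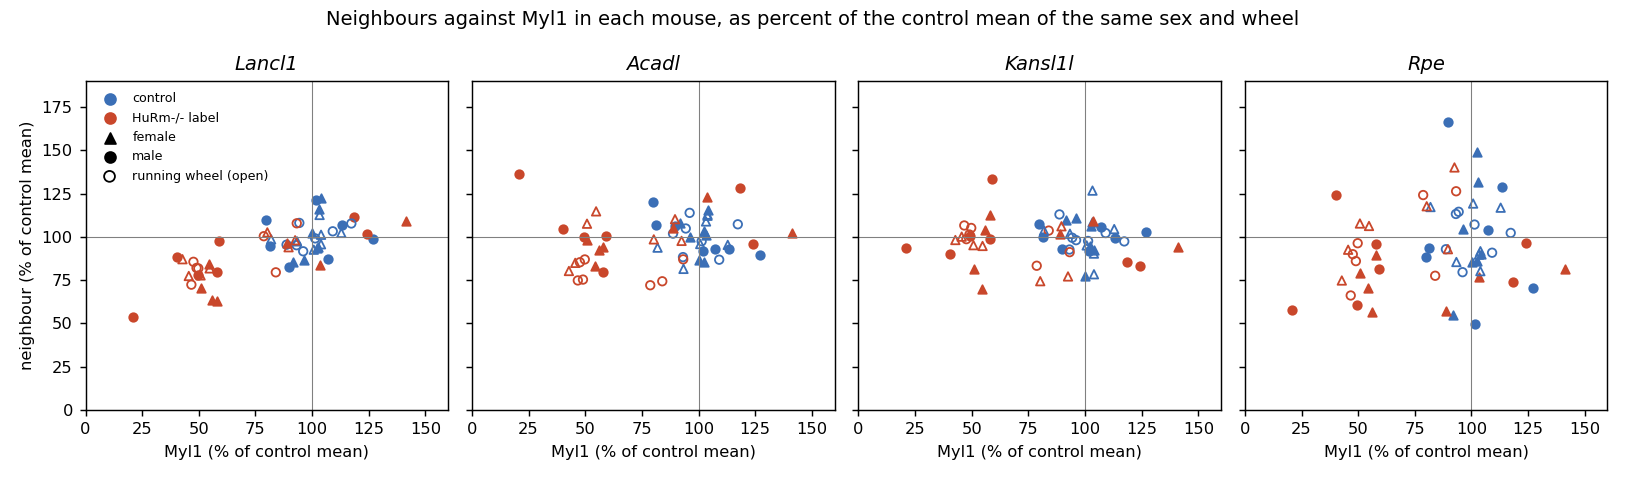
Each neighbour against Myl1 in every mouse, both as percent of the mean of the control mice of the same sex and wheel (lines at 100%). Mice labelled HuRm-/- with Myl1 at 59% or less lie below 100% in Lancl1 in 17 of 17, in Rpe in 14, in Acadl in 12 and in Kansl1l in 9. These mice were picked by their low Myl1, so the counts are a description. The counts among the other labelled mice and over all genes were not determined here.

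No gene of the neighbourhood was among the 5 whose pattern was most like that of Myl1. Those were Nutf2, a nuclear import factor (r = 0.86 over 56 mice, 0.30 over the 28 controls), Pla2g7, a secreted phospholipase (0.84 and 0.46), Tmf1, a Golgi protein (0.81 and 0.01), the antisense RNA Gm12224 (0.80 and 0.73), whose reads could belong to the other strand, and Fhl3, a LIM-domain protein of muscle (0.79 and -0.06). They lie on chromosomes 8, 17, 6, 11 and 4. Their pooled label log2 fold changes were -0.81, -0.64, -0.82, -0.25 and -0.96 in this order. Within the lower clump of labelled mice their r with Myl1 was 0.39, 0.56, 0.03, 0.19 and -0.39, beside 0.69 for Lancl1. Mouse 15 of the labelled locked males, the lowest in Myl1, is included in these values. Within the other labelled mice r was 0.91, 0.38, 0.75, 0.76 and 0.64, beside 0.51 for Lancl1. The most opposite were Tnnt1 (-0.81 over 56 mice, -0.49 over the controls), the slow tropomyosin gene Tpm3 (-0.79 and -0.70), Nras (-0.79 and -0.18), Chrna1, the muscle acetylcholine receptor subunit (-0.78 and -0.14), and Myl2 (-0.75 and 0.00). Within the controls r was closer to 0 for all 10, least so for Gm12224 and Tpm3. Myl1 had r = -0.82 with the mean of the slow genes over 56 mice, -0.62 within the controls, -0.64 within the lower clump and -0.72 within the other labelled mice. For Lancl1 these values were -0.61, -0.27, -0.4 and -0.4 in the same order.

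Acadl was the only member called in the pooled wheel comparison. Its pooled log2 fold change for running against locked was 0.23 (SE 0.05, limma adjusted p = 0.00069), in a comparison where 5.96% of genes were called and 3.42% called higher, and it was positive in 4 of 4 comparisons. In control males it was 0.43 (SE 0.09, limma adjusted p = 0.0046, with 1.49% of genes called higher), from 176 to 237 CPM with locked wheels (median 183) to 230.0 to 302 CPM with running wheels (median 270.0). Male controls therefore barely overlapped between the wheels. Control females ran from 140 to 189 CPM with locked wheels (median 164) and from 158 to 219 CPM with running wheels (median 186). Labelled females ran from 135 to 200 CPM (median 160) and from 156 to 222 CPM (median 191), and labelled males from 157 to 269 CPM (median 198) and from 191 to 231 CPM (median 199.5). The log2 fold changes were 0.24 in both female comparisons (limma adjusted p = 0.095 and 0.14) and 0.03 in labelled males (adjusted p = 0.94), none of which passed the test, but with sample quality weights control females did (0.274, adjusted p = 0.0377). Over all genes, 4.5%, 2.05% and 0.0209% were called higher there. For the other members the pooled log2 fold change of the wheel was -0.02 for Myl1 (SE 0.11, adjusted p = 0.94), -0.04 for Lancl1 (adjusted p = 0.79), -0.08 for Rpe (adjusted p = 0.69) and 0.07 for Kansl1l (adjusted p = 0.42). In control males, labelled males, control females and labelled females, the log2 fold change of Kansl1l was -0.06, -0.03, 0.22 and 0.16. That of Rpe was -0.01, 0.16, -0.44 and -0.04 in this order. None of these passed the limma test (adjusted p from 0.15 to 0.99). The wheel effect in females minus that in males was 0.23 for Kansl1l and -0.31 for Rpe (limma adjusted p = 0.10 and 0.30). Of 24 liver markers, 6 were called lower with the wheel by limma (median log2 fold change -1.87) and 23 by edgeR, where limma called 2.54% of all genes lower. With their mean as a covariate Acadl kept an adjusted p of 0.0028.

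Some other genes of mitochondrial fat oxidation rose with the wheel, and some fell with the label. Of 21 tested besides Acadl, 8 were called higher with the wheel (13 with sample quality weights) and none lower, beside 3.42% of all genes called higher (median log2 fold change 0.14, beside 0.01 over all genes). Hadhb, Acaa2 and Eci1, enzymes of the beta-oxidation spiral, rose by 0.28, 0.27 and 0.25 (limma adjusted p = 7.2e-05, 0.0017 and 2.0e-06). With the label, 7 of the 21 were called lower and none higher (median -0.10), beside 7.41% of all genes called lower, and 3 were called lower with the fast minus slow markers as a covariate. Acat1, Hadh and Etfdh, which act at the last thiolysis step, the hydroxyacyl step and the electron transfer to ubiquinone, fell by 0.30, 0.26 and 0.22 (limma adjusted p = 0.00024, 5.7e-05 and 0.012). The lists around the other neighbours held between 0 and 3 genes called with the label, where 7.41% of all genes were called lower and 4.43% higher. Of 10 glutathione and LanC-like genes, Gpx4 and Gstm1 were called lower at -0.24 and -0.17, and Lancl2, a relative of Lancl1, was called higher at 0.24 (SE 0.08, limma adjusted p = 0.024). Of 9 NSL complex genes, Phf20 was called lower at -0.30 (adjusted p = 0.00054). None of 7 pentose phosphate genes besides Rpe was called, and G6pdx, Pgls and Pgd had 0.26, -0.06 and 0.02 (limma adjusted p = 0.28, 0.56 and 0.94).

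**Figure D4:**
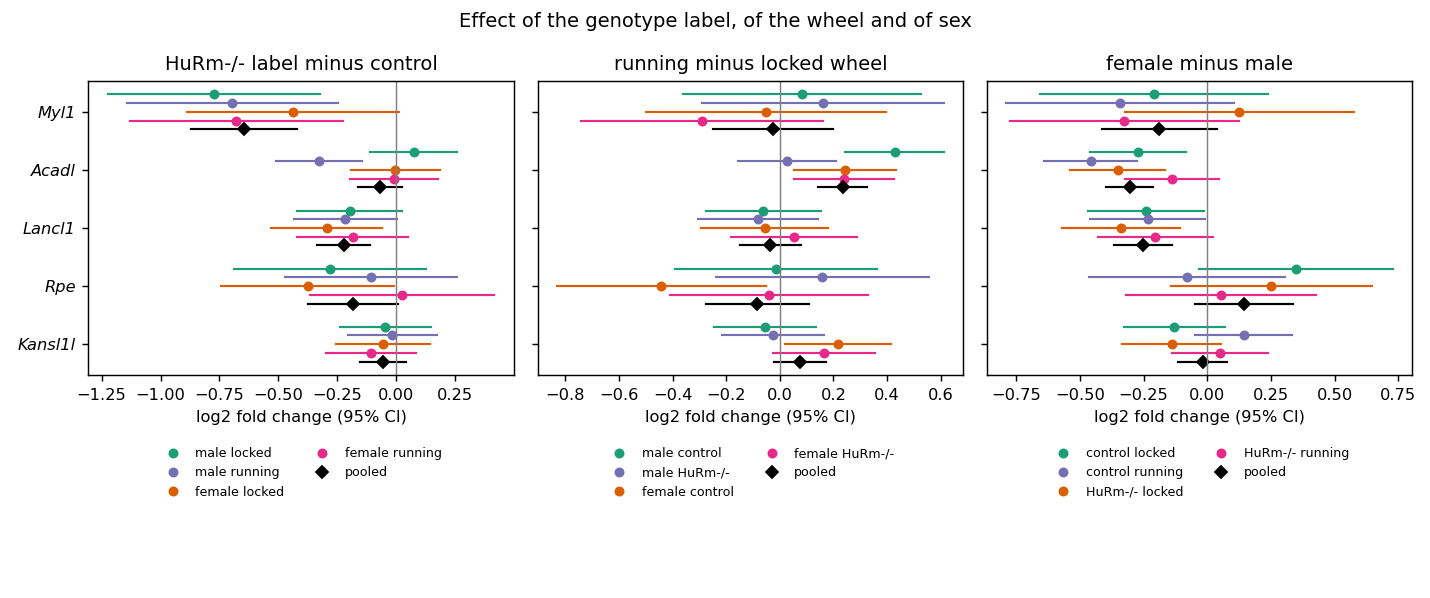
Log2 fold changes with 95% CI of the 5 members for the HuRm-/- label, for the running wheel and for female against male mice, in each of 4 comparisons (colours) and averaged (diamonds). The points of Myl1 lie left of 0 in all label comparisons, those of Acadl right of 0 in all wheel comparisons, and those of Lancl1 and Acadl left of 0 in all sex comparisons. The label CIs of Myl1 are drawn as a description and carry no test, since that gene was chosen on this comparison.

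Females had less Acadl and Lancl1 than males. The pooled log2 fold change of females against males was -0.30 for Acadl (SE 0.05, limma adjusted p = 3.4e-07) and -0.25 for Lancl1 (SE 0.06, adjusted p = 0.00031), both negative in 4 of 4 comparisons. Of all genes tested, 17.1% were called lower in females and 15.8% higher. Myl1 had -0.19 (SE 0.11, limma adjusted p = 0.20), Rpe 0.14 (adjusted p = 0.26) and Kansl1l -0.02 (adjusted p = 0.81), and none of them passed the test. The mean of the adipocyte markers was 4.25 and 4.21 on the log2(CPM + 0.5) scale in control males with locked and running wheels and 5.40 and 4.70 in control females, and that of the slow markers 6.07 and 6.31 in the males and 6.74 and 6.93 in the females. With the adipocyte markers as a covariate Lancl1 had -0.07 (limma adjusted p = 0.65), and with the fast minus slow markers 0.01 (adjusted p = 0.96), while Acadl stayed called under both. Myl1 turned to 0.58 (limma adjusted p = 4.3e-05) with the fast minus slow markers. The part of either tissue difference in the sex effects was not tested.

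Most markers of liver, adipocytes, leukocytes and endothelium did not pass the test with the label. In the pooled comparison, none of 24 liver, 10 adipocyte or 8 leukocyte genes was called, whereas Flt1 of 6 endothelial genes was called lower (-0.13). The pooled liver value averages opposite differences in the sexes. The mean of the liver markers on the log2(CPM + 0.5) scale was 1.4 in control and 3.39 in labelled males with locked wheels and 1.04 and 2.18 with running wheels, but 3.39 and 2.02 in females with locked wheels and 1.03 and 0.541 with running wheels. It also varied from mouse to mouse, from -0.301 in a labelled running female to 6.49 in a control locked female, and Alb was counted in every mouse. With the liver markers as a covariate the pooled calls of Lancl1 with the label and of Acadl with the wheel held.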

How the data were processed

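The authors deposited raw gene counts (reads per gene, not normalized) for 56 libraries (8 groups of 7 mice); the submitters' processing notes name GRCm38 (mm10), R 4.0.3 and edgeR 3.38.4. The aligner, the counter and the use of strand are not given in the sources used here, and the paper and the labels name different library kits. The smallest gene total was 168, so low genes had been removed. Within every group, pairs of mice differed by more than counting error (chi-square over its degrees of freedom, 3.57 to 50.2).

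Counts of 14321 genes passed filterByExpr, were scaled by TMM (edgeR 4.0.16; factors 0.909 to 1.10) and fitted with voom and limma 3.58.1 in R 4.3.3 over all 56 mice with 8 group means. Pooled effects average 4 comparisons, and genes were called at an adjusted p (Benjamini-Hochberg over all genes) of at most 0.05. The fit was checked on simulated counts with the same dispersion for all genes and label effects alone. That setting held no sex or wheel effects and no clumps of mice, so it does not test the fit under the spread of these data. Likeness to Myl1 is Pearson's r of log2 values with group means subtracted. Alternatives were other scalings and tests (DESeq2 1.42.0), no filter, sample weights, marker covariates, a replicate block and each mouse left out.

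Members, lists and tests were chosen with earlier results of these data known. Named genes are the members, Elavl1, tested genes within 1 Mb of Myl1, called genes within 5 Mb, the 5 most and least like Myl1, at most 3 highest and 3 lowest called genes of a list, and 3 examples of a list without calls. Mylpf, Myl3, Acta1, Myh4, Alb and genes behind small list counts were added after their values were seen. The intervals are limma confidence intervals of a difference between group means, with a variance per gene shared by all groups. They do not measure the spread between mice, which differed between groups. Low counts add counting error, most in Rpe. The result of 1 further marker list is not reported here.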

Additional observations from a re-analysis of the deposited data

Results flagged for a closer look

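Kansl1l was flagged in 1 of 40 member-by-group sets of 7 mice, where about 1 in 20 sets is flagged by chance. In males labelled HuRm-/- with locked wheels, mouse 11 had 32.1 CPM and the next highest mouse 24.2 CPM, a gap of 0.598 of the group's range. Without mouse 11, the pooled sex difference of Kansl1l moved from -0.02 to 0.002 and stayed uncalled.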

How the results depend on the processing

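Lancl1 stayed called lower with the label when each of the 56 mice was left out (-0.245 to -0.198) and under each of the 10 alternatives for the pooled effect but the fast minus slow covariate (-0.068, adjusted p = 0.659), where Myl1 moved to -0.19. Acadl stayed called higher with the wheel and lower in females throughout. Under the same covariate, Lancl1 turned to 0.029 for the wheel and 0.009 for sex, and Myl1 to 0.172 and 0.58. The genes called fell to 116 for the label and 2200 for sex. Of the genes within 5 Mb other than Myl1, 0 were called with the label. With the adipocyte covariate, sex called 1458 genes, and the sex differences were -0.073 for Lancl1, 0.169 for Myl1 and 0.053 for Kansl1l. With sample weights, the wheel called 1331 genes in place of 854, and Myl1 had 0.028. Upper-quartile scaling gave Kansl1l 0.003 for sex, and called 821 genes higher and 886 lower with the label, in place of 634 and 1061.

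Small label differences changed sign. Acadl in locked females had 0.019 (upper quartile) and 0.005 (liver covariate), and in running females 0.011 (adipocyte covariate). Rpe in running females had -0.042 (liver) and -0.009 (adipocyte), and Kansl1l 0.012 in locked males (sample weights) and 0.008 in running males (adipocyte). Acadl had -0.003 (DESeq2) and -0.001 (sample weights) for the wheel in labelled males. Fhl3 had r = -0.06 with Myl1 over the controls.

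With 1 mouse left out, ranges that crossed 0 or a call were -0.085 to 0.021 (Myl1, wheel), -0.248 to -0.142 (Myl1, sex; called without mouse 15 of the labelled locked males, adjusted p = 0.0484), -0.029 to 0.002 (Kansl1l, sex), -0.056 to 0.034 and -0.06 to 0.041 (Acadl, label, locked and running females), -0.045 to 0.109 (Rpe, label, running females), -0.035 to 0.027 and -0.119 to 0.001 (Kansl1l, label, running males and locked females), and -0.044 to 0.089 (Acadl, wheel, labelled males).

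The mouse numbers recur only across sexes, and the 22 pairs that share a number had correlations of -0.279 to 0.44 (median 0.0451). Pairs with different numbers were not compared, so these values cannot show whether mice that share a number are related. They were not treated as pairs in the main fit. The replicate block (correlation 0.0222) gave Lancl1 -0.224 and 1686 genes for the label, 826 for the wheel, and changed no call of a member. Only the groups of the same wheel could be fitted for single comparisons, not for pooled ones.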
